A study of Rattus norvegicus with 6 samples.

Results

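The accessible chromatin sites (ACS) described here lost accessibility in rat islets between postnatal day 10 (P10) and adulthood. They were selected on the counts themselves. An ACS was taken as closing when its lowest P10 value was at least 1.5 times its highest adult value, in CPM (the raw count divided by the library's sum over all ACS and multiplied by 1000000), and when its mean raw count over the 6 libraries was at least 50. Of 101603 distinct ACS in the deposited table, 60990 reached this mean count and are called eligible, and 607 of these closed, which is 0.995% of the eligible ACS. The mirrored rule, with adults above P10, gave 2255 opening ACS, or 3.7% of the eligible ACS. Since the age contrast chose the closing ACS, the values of both ages at these sites describe them and test nothing. What follows concerns where the closing ACS lie, which genes are nearest to them, and what these genes are known to do.

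ATAC-seq, in which the Tn5 transposase inserts adapters where DNA is accessible, was run on islets of Sprague-Dawley rats. The P10 group held 3 libraries, numbered 1 to 3, each a mix of a few pups of a different litter at 10 days of age. Male and female pups were raised. The Adult group held 3 libraries, numbered 4 to 6, each from 1 male rat at about postnatal day 90. The labels name no treatment or genetic change. Islets were picked by hand and dissociated but not sorted, so every library mixes endocrine cells with other cells of the islet, and fewer cells of a type cannot be told apart from lower accessibility in each cell. The groups differ in age, in sex and in whether 1 rat or several pups gave the islets. They also differ in islet isolation: pup pancreases were shaken by hand in collagenase, and adult ones had collagenase injected into the duct and a longer digestion. These cannot be told apart. The adult libraries held 7916919 to 11903909 Tn5 integrations in ACS and the P10 libraries 13491534 to 21168463.

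Open chromatin marks promoters, where transcription starts, and enhancers, which lie at a distance and raise the activity of a promoter in particular cells. In rodents, beta cells of the first postnatal weeks still divide and respond poorly to glucose, and they become glucose-responsive and rarely divide later. The comparison of P10 with adult islets asks how chromatin accessibility differs across this maturation. The deposited table assigns each ACS to its nearest gene, which need not be the gene it acts on, and to the TSS class (at a transcription start), the proximal class or the distal class.

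Sequences are shown for 6 closing ACS of the TSS class, because their genes recur in the results and their promoters differ in composition. Of 70 genes with a closing ACS of the TSS class, 56 had a promoter in the RefSeq table (build GRCr8). Each sequence below runs 5′ to 3′ in the direction of the gene, from 250 bases before the start to 50 bases after it, and capitals mark matches to 7 searched motifs. The RefSeq start can differ from the start in the deposited Rn5 annotation.
Klf9 (chr1:230126396-230126695, plus strand): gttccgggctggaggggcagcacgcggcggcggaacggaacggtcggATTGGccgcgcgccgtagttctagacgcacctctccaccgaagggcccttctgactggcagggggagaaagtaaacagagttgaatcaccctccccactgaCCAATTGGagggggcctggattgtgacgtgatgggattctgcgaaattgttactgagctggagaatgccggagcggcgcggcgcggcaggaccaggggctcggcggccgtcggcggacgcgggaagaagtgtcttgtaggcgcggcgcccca
Aldh1a1 (chr1:227537370-227537669, plus strand): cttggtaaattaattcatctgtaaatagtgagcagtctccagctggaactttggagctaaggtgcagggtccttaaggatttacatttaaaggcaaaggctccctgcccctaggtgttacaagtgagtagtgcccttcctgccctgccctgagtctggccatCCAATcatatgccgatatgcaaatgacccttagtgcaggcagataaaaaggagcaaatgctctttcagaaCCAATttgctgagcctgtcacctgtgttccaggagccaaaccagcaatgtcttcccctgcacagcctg
Frem2 (chr2:139890997-139891296, minus strand): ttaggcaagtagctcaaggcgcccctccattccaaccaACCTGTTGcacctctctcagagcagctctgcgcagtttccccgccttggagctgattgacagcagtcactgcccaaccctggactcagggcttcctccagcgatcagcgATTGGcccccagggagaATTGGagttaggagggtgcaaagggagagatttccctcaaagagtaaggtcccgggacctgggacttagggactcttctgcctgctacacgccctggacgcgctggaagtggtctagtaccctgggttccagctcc
Pdgfd (chr8:11773258-11773557, plus strand): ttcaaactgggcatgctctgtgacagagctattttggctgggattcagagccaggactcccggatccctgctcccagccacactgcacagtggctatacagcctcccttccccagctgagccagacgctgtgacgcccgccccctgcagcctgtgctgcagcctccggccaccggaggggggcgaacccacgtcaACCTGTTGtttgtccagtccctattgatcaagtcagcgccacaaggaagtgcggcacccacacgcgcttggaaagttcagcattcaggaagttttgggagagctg
Id1 (chr3:161671314-161671613, plus strand): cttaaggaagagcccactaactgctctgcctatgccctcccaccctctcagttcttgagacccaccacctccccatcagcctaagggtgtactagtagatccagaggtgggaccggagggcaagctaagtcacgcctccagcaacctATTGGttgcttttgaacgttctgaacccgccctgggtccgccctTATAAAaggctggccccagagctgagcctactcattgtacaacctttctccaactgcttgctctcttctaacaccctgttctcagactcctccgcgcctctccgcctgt
Heyl (chr5:140793021-140793320, plus strand): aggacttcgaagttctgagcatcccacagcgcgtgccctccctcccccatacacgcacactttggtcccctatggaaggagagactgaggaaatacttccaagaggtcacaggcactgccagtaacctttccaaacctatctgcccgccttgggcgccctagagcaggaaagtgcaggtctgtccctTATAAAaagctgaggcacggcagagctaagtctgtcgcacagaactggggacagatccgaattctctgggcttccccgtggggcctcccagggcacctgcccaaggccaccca

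The motifs searched on both strands were the NRF1 palindrome, the core of the SCRT1 motif (CAACAGGT), the NFY box (CCAAT), an E2F site (TTTCCCGC or TTTGGCGC), the CRE (TGACGTCA), an AP-1 site (TGACTCA) and the TATA box (TATAAA). None of these strings contains another. The Klf9 window held 3 NFY boxes, of which the last 2 overlap on opposite strands, and the Aldh1a1 window held 2. The windows of Id1 and Heyl held a TATA box that began 59 and 63 bases before the start. The SCRT1 core was found in 4 of the 56 promoters (7.14%, 95% Wilson interval 2.81 to 17.0%), those of Frem2, Pdgfd, Olr59 and Mfsd6l, against 40 of 7566 promoters of all eligible TSS-class ACS (0.529%, 0.389 to 0.719%) and 219 of all 27457 promoters (0.798%). SCRT1 is a zinc finger repressor that the study examined in these islets. The match began 212 bases before the start in Frem2 and 55 bases before it in Pdgfd. The count is small, and it rests on which ACS close: it was 4 of 165 promoters (2.42%) without Adult 5, 4 of 115 (3.48%) without P10 3, 4 of 106 (3.77%) without Adult 4, 5 of 125 (4.0%) without P10 1 and 4 of 97 (4.12%) without Adult 6. It was higher where fewer ACS closed, with 4 of 32 (12.5%) under TMM scaling, 4 of 37 (10.8%) under DESeq2 size factors and 1 of 5 (20%) with a margin of 2. With minimum mean counts of 20, of 100 and none it was 4 of 74 (5.41%), 3 of 32 (9.38%) and 4 of 75 (5.33%). Without P10 2 it was 4 of 64 (6.25%). With scaling by total reads per library it was 11 of 1857 (0.592%), near the 0.529% of all eligible TSS-class ACS. The NFY box was found in 33.9% of the 56 promoters and in 38.4% of the 7566. The TATA box was found in 12.5% of the 56 (6.19 to 23.6%), in 5.87% of the 7566 and in 14.3% of all 27457 promoters. NRF1, E2F, CRE and AP-1 strings were each found in 1 of the 56 promoters (1.79%), against 1.98%, 3.13%, 3.53% and 3.21% of the 7566. A match to letters is not a measured binding site. Promoters of the closing TSS class had a median GC content of 60% and a ratio of observed to expected CpG of at least 0.6 in 57.1%, against 62.0% and 78.5% for all eligible TSS-class ACS.

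Most closing ACS were far from promoters. Of the 607, 470 (77.4%, Wilson interval 73.9 to 80.6%) were distal, 67 (11.0%, 8.79 to 13.8%) proximal and 70 (11.5%, 9.23 to 14.3%) of the TSS class. Among all eligible ACS the TSS class took 16.6% and the distal class 72.2%. The opening ACS were still more distal, with 2057 of 2255 (91.2%) in that class and 21 (0.931%, 0.61 to 1.42%) at a TSS. Promoters were therefore a larger share of the closing than of the opening ACS. Their share was below that of all eligible ACS by this rule, but above 16.6% without P10 3 (18.2%) and with scaling by total reads (21.6%). Wilson intervals cover counting error only, and neighbouring ACS are not independent. TSS-class ACS have high counts, and few ACS of high count closed: 1.51% of the eligible ACS with mean counts of 50 to 73.8 closed, and 0.414% of those from 223 upward. Among ACS with mean counts of 50 to 73.8, 17 of 800 TSS-class ACS closed (2.12%) and 2 opened, while 193 of 12808 distal ACS closed (1.51%) and 482 opened. From a mean count of 223 upward the order was the other way, with 14 of 5760 TSS-class ACS (0.243%) and 41 of 7912 distal ACS (0.518%) closing. These mean counts lean on the deeper P10 libraries.

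**Figure D1:**
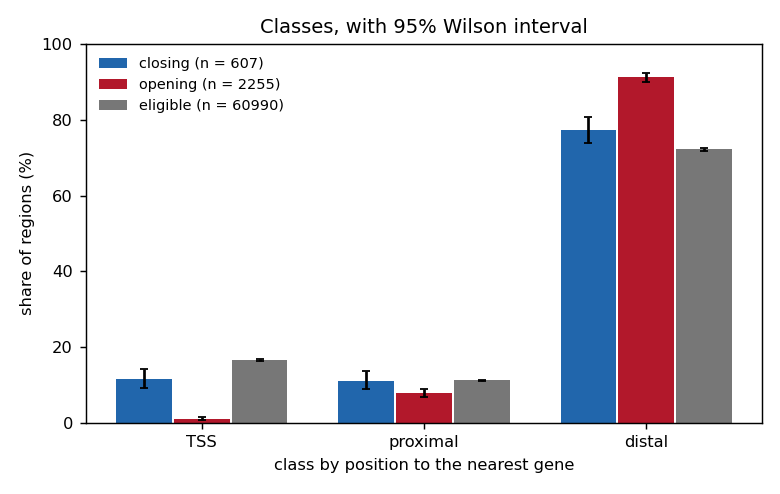
Share of closing, opening and eligible ACS in the TSS, proximal and distal class, in percent of each set, with 95% Wilson intervals as error bars. The TSS class takes 11.5% of the closing ACS, 0.931% of the opening ACS and 16.6% of the eligible ACS.

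By the annotation, 147 closing ACS (24.2%, 21.0 to 27.8%) lay inside their nearest gene, 51 overlapped its start, 253 lay upstream and 156 downstream. The 409 outside genes had a median distance of 80.6 kb to the gene (quartiles 22.7 and 229 kb), against 65.5 kb for the eligible ACS outside genes. More than 500 kb separated 49 closing ACS (8.07%, 6.16 to 10.5%) from their nearest gene, against 5.43% of the eligible ACS, so the name of the gene says little for these. The median width was 490 bp in the closing and 493 bp in the eligible ACS, and 377 bp in the opening ACS.

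Closing ACS crowded on chromosomes 3 and 1. On chromosome 3, 94 of 3723 eligible ACS closed (2.52%, Wilson interval 2.07 to 3.08%), and on chromosome 1, 117 of 7073 (1.65%, 1.38 to 1.98%). On chromosome 19, 2 of 1802 closed (0.111%), with 85 opening ACS there. Chromosome 10 had 18 of 2449 closing (0.735%), and its median log2 difference, adult minus P10, over all eligible ACS was -0.28. On the X chromosome 20 of 1363 closed (1.47%, 0.952 to 2.26%), and this median was -0.19. The adults were males and the pups were not separated by sex, so on the X chromosome age and sex cannot be told apart.

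**Figure D2:**
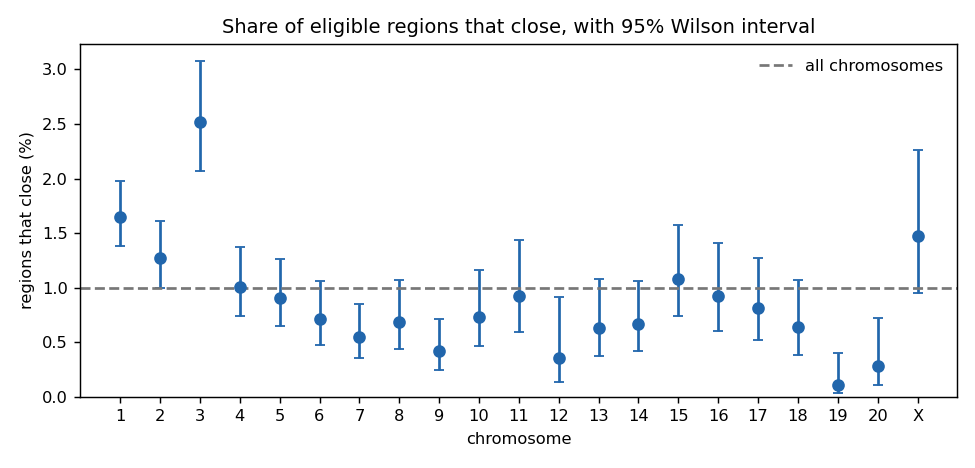
Percent of the eligible ACS on each chromosome that close, with 95% Wilson intervals, and a dashed line at 0.995% for all chromosomes. Chromosomes 3 (2.52%) and 1 (1.65%) have the highest shares and chromosome 19 (0.111%) the lowest.

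On chromosome 3 closing ACS were densest in a block of 25 Mb, from 130 to 155 Mb in Rn5, which was noticed after the values were seen. There 47 of 534 eligible ACS closed (8.8%), while 47 of the 3189 others on the chromosome did (1.47%). The closing ACS of the block included those nearest to Flrt3, Slc24a3, Ism1, Pax1 and Plcb4, each with 3 or 4 of them, and to Bmp2, Snap25, Kif16b and Id1. The other ACS of the block were shifted too. The 487 other eligible ACS of the block had a median log2 difference of -0.41, against -0.05 over all 60383 eligible ACS that did not close, and 29.6% of them were called lower in adults by edgeR's quasi-likelihood test (p under 0.05 and FDR under 0.2), against 5.23% of all such ACS. Relative to the mean of the 6 libraries, the median of these 487 ACS was -0.12, -0.15 and -0.28 in Adult 4, 5 and 6 and 0.23, 0.15 and 0.18 in P10 1, 2 and 3, so every library of one age lay on the same side. A second block, from 240 to 250 Mb on chromosome 1, held 22 closing ACS among 248 (8.87%). Its other 226 ACS had a median of -0.25, and P10 1 stood at 0.02 while P10 2 and 3 stood at 0.14 and 0.19. When each library's CPM was divided by its median level in the surrounding 5 Mb window, an alternative chosen after seeing the data, 3 of the 47 ACS of the block on chromosome 3 still met the rule, 10 of the 22 on chromosome 1, and 368 of the 538 elsewhere. What moves whole blocks was not tested.

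**Figure D3:**
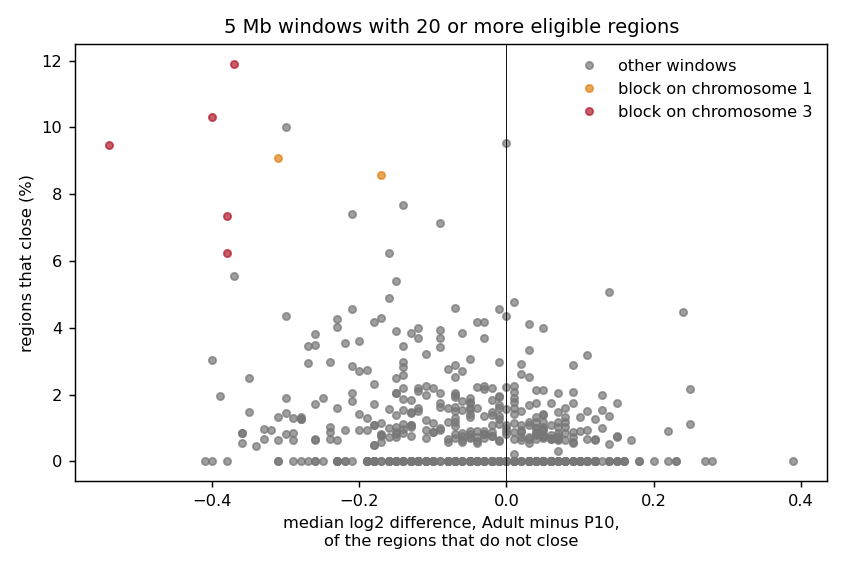
Each point is a window of 5 Mb with at least 20 eligible ACS; the horizontal axis gives the median log2 difference, adult minus P10, of its ACS that do not close, and the vertical axis the percent of its ACS that close. The 5 windows of the block on chromosome 3 lie at 6.25 to 11.9% with medians from -0.54 to -0.37, and the 2 of the block on chromosome 1 at 8.57 and 9.09%.

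In all, 537 genes were nearest to a closing ACS, 3.93% of the 13678 genes nearest to an eligible ACS. Of these, 484 had 1 closing ACS, 53 had 2 or more and 12 had 3 or more. Genes with a closing ACS had a median of 8 eligible ACS, against 2 for all genes, so genes in wide intervals were named more often. Among the 537 genes, 149 (27.7%) also had an opening ACS, against 12% of all genes having one. Genes with more ACS also have more occasions for an opening one. The 2 shares were not compared at equal numbers of ACS, so they do not show that closing and opening go together. The 53 genes with several closing ACS had 549 further eligible ACS, of which edgeR called 80 lower in adults (14.6%) and 83 higher. Among all eligible ACS that did not close, 5.23% were called lower and 17.4% higher. Several of the 53 genes lay in the blocks on chromosomes 3 and 1. In these blocks 29.6% and 14.6% of the ACS that did not close were called lower. Over all 101603 ACS, edgeR called 6738 lower (6.63%) and 12504 higher (12.3%) in adults. With column sums in place of TMM scaling these counts were 10732 and 10447. The share of 14.6% was 8.56% without P10 2 and 8.01% without P10 3, where 2.25% and 3.37% of all eligible ACS that did not close were called lower. These calls come from the contrast that chose the closing ACS.

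The gene with the most closing ACS was Mir204, with 5 of its 15 eligible ACS. Mir204 lies within the gene Trpm3, a cation channel of the TRP family that beta cells carry, and encodes a microRNA known in islets. Trpm3 itself was nearest to 2 more closing ACS. All of these lay in the block on chromosome 1 described above. The ACS of that block that did not close had a median log2 difference of -0.25. The mature products of Mir204 follow from RefSeq, with the seed, bases 2 to 8, in capitals, because this gene leads the count.
rno-miR-204-5p: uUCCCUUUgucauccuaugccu
rno-miR-204-3p: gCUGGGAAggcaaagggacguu
Both arms have different seeds. The closest ACS lay 2.65 kb downstream of Mir204 (chr1:247692947-247693555) and had 29.4, 29.2 and 30.3 CPM in P10 1, 2 and 3 and 14.4, 11.4 and 10.9 CPM in Adult 4, 5 and 6. The P10 values were close together and all above the adult values, as the rule requires. The other 4 lay 36.1 to 146 kb away. Only the closest of the 5 still met the rule after division by the level of its window. In all, 15 closing ACS (2.47%) were nearest to a microRNA gene, of 11 genes, against 1.64% of the eligible ACS. Of these 11 genes 9 had mature sequences in the RefSeq table, with 16 products and no shared seed.

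Egr1, an immediate early gene that encodes a zinc finger activator induced by growth factors and by glucose, had 4 closing ACS. They formed 1 of the longest runs of closing ACS, a stretch of 2.98 kb that began 1.75 kb downstream of the gene on chromosome 18, and all 4 eligible ACS in that stretch closed. The widest closing ACS of all was among them (chr18:27373464-27375257), with 96.8, 53.7 and 57.8 CPM in P10 1, 2 and 3 and 20.5, 29.8 and 23.5 CPM in Adult 4, 5 and 6. P10 1 stood well above the other pups here. The same library was highest at the 3 smaller ACS of the run, with 20.7 CPM against 11.4 and 9.88 at the one 3.84 kb from the gene. All 4 met the rule also after window division and after TMM scaling.

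The other run of 4 lay in a histone gene cluster of chromosome 17, over 18.6 kb from 45654031 to 45672642, with 4 of 5 eligible ACS closing. The nearest genes were Hist1h2bg and the one listed as Hist1h2ail1, in a class of core histone genes used in dividing cells. The ACS at the start of Hist1h2ail1 had 25.9, 27.8 and 23.1 CPM in P10 1, 2 and 3 and 11.7, 12.9 and 12.4 CPM in Adult 4, 5 and 6. The ACS at the start of Hist1h2bg had 32.9, 34.3 and 31.6 CPM in the pups and 18.6, 18.8 and 20.5 CPM in the adults, and unlike the other 3 ACS of the run it was not kept by TMM scaling or window division. Histone genes have near-identical copies, and reads of mapping quality under 30 were dropped. Reads that fit several copies may therefore be missing, and these values are uncertain. Of the next longest runs, 3 ACS lay downstream of Tra2a, which encodes a splicing regulator. The nearest of these to the gene, 22.7 kb away, had 25.7, 25.9 and 21.6 CPM in P10 1, 2 and 3 and 2.35, 5.23 and 1.89 CPM in Adult 4, 5 and 6. Adult values at its neighbour, 25.4 kb away, were 0.42, 1.55 and 1.01 CPM. All 3 closing ACS at Tra2a met the rule after window division. In all, 27 runs with gaps of at most 50 kb held 62 closing ACS (10.2%), and 181 such runs held 386 of the opening ACS (17.1%).

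Eligible ACS within 50 kb of a closing ACS that did not close themselves numbered 1634. Their median log2 difference was -0.15, and in 22.6% every P10 value exceeded every adult value. Over all eligible ACS this was so in 15.8%, closing ACS included, and over those that did not close in 14.9%. In that neighbourhood 56 ACS (3.43%) opened, close to the 3.73% of all ACS that did not close.

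Slc24a3, a sodium, potassium and calcium exchanger, and Flrt3, a leucine-rich membrane protein of cell adhesion and FGF signalling, had 4 closing ACS each in the block on chromosome 3. The ACS at the Flrt3 start (chr3:141146714-141147311) had 29.1, 42.8 and 41.3 CPM in P10 1, 2 and 3 and 17.4, 19.3 and 15.0 CPM in Adult 4, 5 and 6. The other 3 lay 75.9 to 668 kb upstream. At the Slc24a3 start the pups had 29.9, 27.4 and 32.0 CPM and the adults 11.6, 17.5 and 12.6 CPM. Of these 8 ACS, 1 within Slc24a3 met the rule after window division. Dlg2, a synaptic scaffold protein, and Plce1, a phospholipase C downstream of Ras, had 4 each on chromosome 1, of which 2 each remained after that division. Ism1, Plcb4 and Pax1 had 3 closing ACS each, all on chromosome 3, and none met the rule after window division.

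Igf2bp2, an RNA-binding protein of the oncofetal IGF2BP family that binds Igf2 mRNA, had 3 closing ACS, all inside the gene, 28.7 to 61.7 kb from its nearer end. The one with the highest count had 8.03, 9.04 and 5.25 CPM in P10 1, 2 and 3 and 2.44, 2.33 and 2.27 CPM in Adult 4, 5 and 6. The adult values were nearly equal, and P10 3 was the lowest of the pups at all 3 of these ACS. After window division all 3 met the rule. Of the 4 further eligible ACS of Igf2bp2, edgeR called 2 lower and 1 higher in adults.

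The closing ACS with the highest count lay 94.0 kb upstream of Ctdspl, a phosphatase gene (chr8:126195807-126196929). It had 114, 163 and 148 CPM in P10 1, 2 and 3 and 56.1, 72.6 and 68.3 CPM in Adult 4, 5 and 6. Of the 35 other eligible ACS assigned to Ctdspl, edgeR called 1 lower and 3 higher. Over all eligible ACS that did not close, 5.23% were called lower and 17.4% higher. Among promoters, Klf9, a Krüppel-like factor induced by thyroid hormone and glucocorticoids, had the highest count. Its start had 84.6, 82.3 and 82.2 CPM in P10 1, 2 and 3 and 52.9, 48.4 and 49.6 CPM in Adult 4, 5 and 6, with little spread in either group. It lay close to the limit of the rule, and was not kept by TMM scaling or by window division. Aldh1a1, a retinaldehyde dehydrogenase that makes retinoic acid, lay in the same block of chromosome 1, with 39.3, 59.3 and 53.3 CPM in the pups and 21.6, 20 and 24.9 CPM in the adults. It was kept by TMM scaling and not by window division.

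The promoters of Pcdh20 and Frem2 met the rule under both. Pcdh20 is a protocadherin, and Frem2 a matrix protein of epithelial basement membranes. The Pcdh20 start had 39.6, 58.9 and 51.4 CPM in P10 1, 2 and 3 and 12.4, 21.7 and 19.2 CPM in Adult 4, 5 and 6. The Frem2 start, the one with the SCRT1 core shown above, had 34.2, 46.8 and 41.4 CPM in the pups and 13.1, 18.3 and 19.6 CPM in the adults. At both the lowest pup was P10 1 and the lowest adult was Adult 4. Among the 12 TSS-class closing ACS of highest count were also those of Kif16b, Prss23, Rasgrp1 and Neurl1, on chromosomes 3 and 1, none of which met the rule under either alternative. In the TSS class as a whole, 28 of 70 were kept by window division and 39 by TMM scaling, and in the distal class 317 and 312 of 470.

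**Figure D4:**
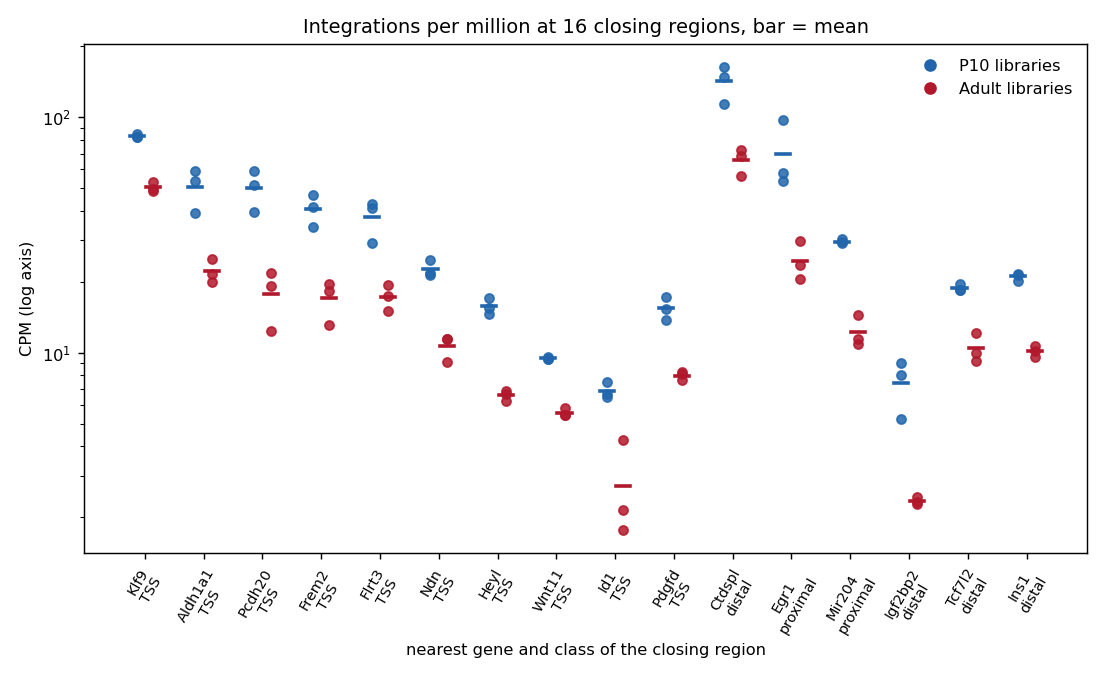
CPM on a log axis in the 3 P10 and the 3 adult libraries at 16 closing ACS, with a bar at the mean of each age; for genes with several closing ACS the one of highest count in the class is drawn. The groups do not overlap by construction, and by the ratio of highest to lowest value the pups spread most at Egr1, from 53.7 to 96.8 CPM.

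Genes were grouped in 21 lists by function, which were written with earlier results of these data known. Shares are given per eligible ACS, since genes with many ACS are named more often, beside 0.995% for closing and 3.7% for opening over all eligible ACS. No list was tested. The list of fetal growth, imprinted and IGF axis genes had the highest share, with 7 closing of 184 ACS (3.8%) and 7 opening. The 7 were the 3 of Igf2bp2, 2 of Ndn and 1 each of Gnas and Gpc3. Ndn, an imprinted growth suppressor expressed from the paternal allele, had 2 eligible ACS and both closed. Its start had 21.7, 21.4 and 24.8 CPM in P10 1, 2 and 3 and 11.4, 11.4 and 9.09 CPM in Adult 4, 5 and 6. Gpc3, a heparan sulfate proteoglycan that restrains growth, lies on the X chromosome. The closing ACS inside it had 6.47, 6.23 and 6.52 CPM in the pups and 3.28, 3.39 and 3.41 CPM in the adults. Of the 7, 4 were kept by window division, those of Igf2bp2 and Gpc3.

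The Wnt list followed, with 9 closing of 303 ACS (2.97%) and 10 opening (3.3%), in 8 of 54 genes. Wnt proteins bind Frizzled receptors and act through TCF factors or through planar polarity proteins. Ligands were Wnt11 and Wnt2b, receptors Fzd4 and Fzd8, inhibitors Sfrp2 and Sfrp5, the polarity protein Prickle2, and the transcription factor Tcf7l2, a gene of type 2 diabetes risk, with 2. The Wnt11 start had 9.59, 9.41 and 9.44 CPM in P10 1, 2 and 3 and 5.46, 5.43 and 5.81 CPM in Adult 4, 5 and 6. The ACS inside Fzd8 had 12.8, 14.7 and 16.9 CPM in the pups and 7.81, 7.36 and 5.68 CPM in the adults. The stronger ACS of Tcf7l2, 34.6 kb downstream, had 19.5, 18.5 and 18.5 CPM in the pups and 9.24, 9.98 and 12.1 CPM in the adults. Both Tcf7l2 ACS were lost under window division, and 4 of the 9 remained. Of the 294 other ACS of the list edgeR called 13 lower (4.42%) and 52 higher (17.7%), near the shares of all ACS.

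In the AP-1 and immediate early list 8 of 309 ACS closed (2.59%), of which 4 were those of Egr1. The others belonged to Fosb and Junb, subunits of AP-1, and to Bach1 and Bach2, BTB repressors that bind related sites. The ACS inside Fosb had 24.1, 21.6 and 19.3 CPM in P10 1, 2 and 3 and 12.4, 11.0 and 11.1 CPM in Adult 4, 5 and 6. Junb, 1.11 kb upstream of its start, had 29.9, 26.2 and 24.1 CPM in the pups and 15.4, 16 and 16 CPM in the adults. P10 1 was the highest pup at Egr1, Fosb and Junb. Inside Bach2 the pups lay close together, with 9.59, 10.7 and 10.2 CPM, against 4.12, 3.39 and 3.54 CPM in the adults. Of the 8, 7 were kept by window division, and the list also had 14 opening ACS (4.53%).

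The list of glucose sensing, secretion machinery and mature beta cell genes had 9 closing of 391 ACS (2.3%) and 17 opening. Gpd2 and Ins1 had 2 each, and Snap25, Pcsk1, Adcy5, Cacna1c and Syt9 had 1 each. Gpd2 is the mitochondrial glycerol phosphate dehydrogenase, Ins1 the first rat insulin gene, Snap25 a SNARE of exocytosis and Pcsk1 a prohormone convertase. All those of Ins1, Gpd2, Snap25 and Pcsk1 were distal. Those of Ins1 lay 115 and 215 kb upstream, and the farther one had 21.6, 20.2 and 21.4 CPM in P10 1, 2 and 3 and 10.2, 10.7 and 9.6 CPM in Adult 4, 5 and 6. The stronger ACS of Gpd2 had 37.6, 32.0 and 33.9 CPM in the pups and 19.7, 15.5 and 20 CPM in the adults. At Snap25, in the block on chromosome 3, the pups had 18.8, 18.5 and 17.9 CPM and the adults 9.91, 10.7 and 8.08 CPM. Window division kept 4 of the 9 and TMM scaling 3.

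The Notch list had 3 closing of 145 ACS (2.07%), in the ligand Dll1, the regulator Dtx4 and the target Heyl, a hairy-related repressor, and all 3 were kept by window division. The Heyl start, whose TATA box is shown above, had 15.5, 17.0 and 14.6 CPM in P10 1, 2 and 3 and 6.22, 6.88 and 6.69 CPM in Adult 4, 5 and 6. The ACS inside Dtx4 had 27.1, 32.8 and 35.3 CPM in the pups and 17.5, 17.7 and 15.2 CPM in the adults. In the TGF-beta, activin and BMP list 6 of 413 closed (1.45%), those of the ligands Bmp2 and Bmp7, the antagonist Grem1, the matrix binder Ltbp1 and, with 2, the BMP target Id1, an inhibitor of bHLH factors. The Id1 start had 7.51, 6.67 and 6.46 CPM in the pups and 1.76, 4.26 and 2.15 CPM in the adults, of which Adult 5 was the highest. Of these 6, 1 was kept by window division and 4 by TMM scaling. The prolactin, growth hormone and serotonin list had 3 of 140 (2.14%), in Tph1, which makes serotonin, the receptor Htr1a and the signalling inhibitor Socs3, and none was kept by TMM scaling.

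**Figure D5:**
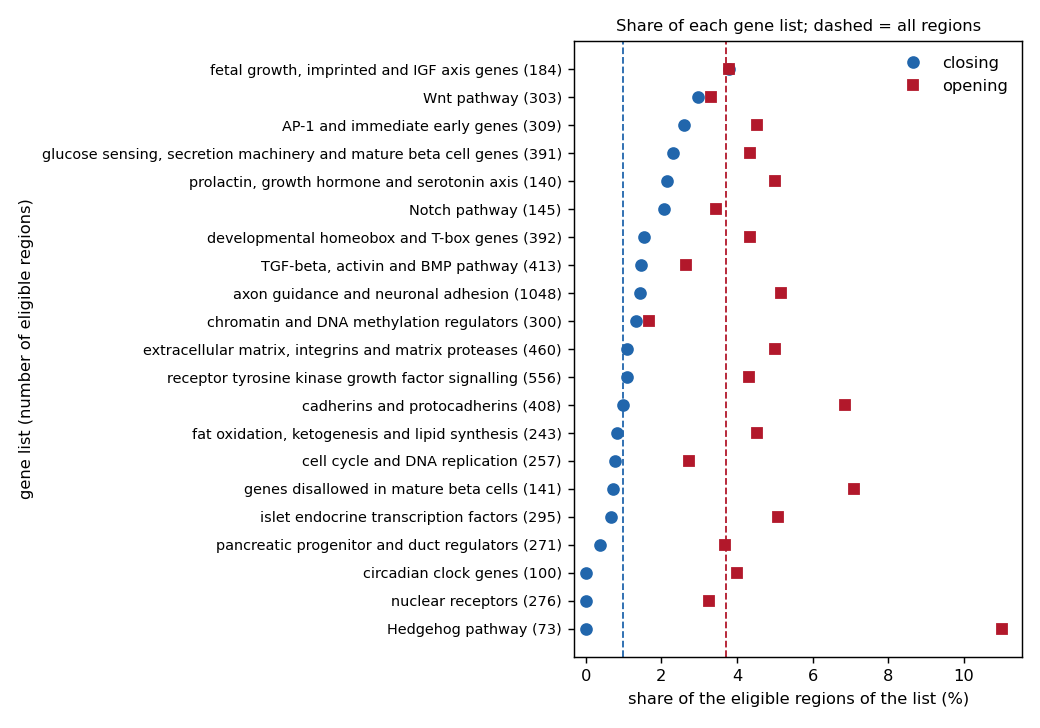
Percent of the eligible ACS of each of 21 gene lists that close (circles) or open (squares), with the number of eligible ACS in brackets and dashed lines at 0.995% and 3.7% for all eligible ACS. The fetal growth list has 3.8% closing, the Wnt list 2.97%, and the Hedgehog, nuclear receptor and circadian clock lists 0.

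Several lists of development stood near the level of all ACS. Axon guidance and neuronal adhesion genes had 15 closing of 1048 ACS (1.43%), 4 of them at Flrt3 and 2 at Flrt2, and 54 opening. One of the larger was downstream of Sema3d, a secreted guidance cue, with 22.4, 26.7 and 30.9 CPM in P10 1, 2 and 3 and 7.81, 6.2 and 11.6 CPM in Adult 4, 5 and 6. Receptor tyrosine kinase signalling had 6 of 556 (1.08%), among them those of the ligands Pdgfd and Fgf6, the receptor Ntrk3, with 2, and the inhibitor Spry1. The start of Pdgfd, whose sequence holds the SCRT1 core, had 13.8, 17.2 and 15.3 CPM in the pups and 7.64, 8.24 and 8.08 CPM in the adults. Extracellular matrix and integrin genes had 5 of 460 (1.09%), among them Adamts15, Thbs2, Itga4 and Itgb6, and cadherins 4 of 408 (0.98%). Homeobox and T-box genes had 6 of 392 (1.53%), among them those of Meis1, Meis2, Lhx2 and Tbx18, and chromatin regulators 4 of 300 (1.33%), in Arid1a, Hdac9, Prdm1 and Smarca1.

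The lists of cell division genes, islet transcription factors, progenitor regulators and disallowed genes had shares of closing ACS below the 0.995% of all eligible ACS. These rest on counts of 1 or 2. The cell cycle list had 2 of 257 (0.778%), at the start of Aurkb, a mitotic kinase, and inside Ccnd1, cyclin D1, and neither was kept by window division or TMM scaling. The Aurkb start had 8.83, 7.41 and 6.24 CPM in P10 1, 2 and 3 and 3.7, 4.07 and 2.78 CPM in Adult 4, 5 and 6. Of the 255 other ACS of that list edgeR called 10 lower (3.92%) and 38 higher (14.9%). Over all eligible ACS that did not close, these shares were 5.23% and 17.4%. Islet transcription factors had 2 of 295 (0.678%), 575 kb downstream of Isl1 and 8.67 kb upstream of Pax6, progenitor and duct regulators had 1 of 271, in Sox6, and genes disallowed in mature beta cells 1 of 141, at Arap2. Fat oxidation and lipid genes had 2 of 243, near Cd36 and Plin2. No closing ACS was assigned to the Hedgehog list (73 ACS, of which 8 opened), the nuclear receptors (276) or the clock genes (100).

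Marker genes of islet and other cell types gave too few ACS to set their counts apart from the 0.995% of all eligible ACS. Of 9 marker lists, 7 had none among 20 to 80 eligible ACS each: those of alpha, delta, PP and epsilon cells, acinar, duct, endothelial, mesenchymal, Schwann and erythroid cells. The beta cell list had the 2 of Ins1 and the leukocyte list 1, 50.7 kb from Cd8a. Summed over all ACS of a list, the leukocyte markers had 344.3 to 366.1 CPM in adults and 384.8 to 400.2 CPM in the pups, and the mesenchymal markers 1531 to 2341 and 1197 to 1554 CPM. The endothelial markers had 909.1 to 925.1 and 894.5 to 912.1 CPM, the acinar markers 443.6 to 468.4 and 450.1 to 463.5 CPM, and the beta cell markers 1105 to 1212 and 1083 to 1396 CPM. The alpha, delta, PP and epsilon cell markers had 1163 to 1297 and 1073 to 1166 CPM, and the duct, Schwann and erythroid sums overlapped between the ages. Over TSS-class ACS alone the leukocyte markers, with 2 such ACS, had 34.3 to 40.4 CPM in adults and 22.0 to 24.4 CPM in the pups, the opposite order. The TSS-class sums were higher in every pup than in every adult for endothelial markers (38.6 to 48.1 CPM in adults and 54.3 to 68.6 CPM in the pups), for alpha, delta, PP and epsilon cell markers (125 to 141 and 150 to 176 CPM) and for acinar markers (19.3 to 28.1 and 28.8 to 31.7 CPM). Ranges that met or overlapped also lay mostly higher in the pups for beta cell (186 to 232 and 231 to 365 CPM), duct (102 to 125 and 123 to 137 CPM) and mesenchymal markers (124 to 130 and 130 to 153 CPM). Erythroid sums overlapped (67.6 to 72.4 and 68.1 to 79.3 CPM), and Schwann sums leaned the other way (158 to 181 and 151 to 173 CPM). No such sum was formed over all TSS-class ACS, so these orders are not traits of particular cell types. No ACS of these lists was at 0 in any library, and counts at marker genes do not measure cell numbers. The part of cell composition in the closing ACS was not tested.

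The libraries that had not taken part in a choice mostly stood on the same side. When P10 1 was left out, 1193 ACS met the rule in the other 5 libraries. P10 1 exceeded every adult in 1103 of them (92.5%). Among the 56723 ACS with a mean count of at least 50 in those 5 libraries it did so in 33.3%. The shares beside the other libraries were counted in the same way. For P10 2 this held in 761 of 785 (96.9%, against 31.9%) and for P10 3 in 792 of 836 (94.7%, against 29.5%). Adult 4 lay below every pup in 1108 of 1182 (93.7%, against 37.0%), Adult 5 in 1293 of 1471 (87.9%, against 36.2%) and Adult 6 in 1191 of 1315 (90.6%, against 37.1%). The libraries of the opposite age had helped to choose these ACS, so the shares do not rest on the left-out library alone. Part of the gap to the share of all ACS follows from this choice, and the shares are a description, not a test. The full margin of 1.5 was reached in 41.6% for P10 1 and in 73.1% for P10 2, with the other 4 libraries between them. Among the 607, P10 1 was the lowest pup in 269 (44.3%) and P10 2 the highest in 245 (40.4%), against 36.3% and 28.9% of the eligible ACS, while the adults shared the highest place almost evenly, with 194, 213 and 200. Replicates spread with a median coefficient of variation of 12% among pups and 15.4% among adults at the closing ACS, and 15.8% and 17.9% at the eligible ACS. A low spread favours meeting the rule.

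Just inside the limit stood 2 ACS nearest to Foxb2 on chromosome 1 and 1 near Rassf6, whose lowest P10 value was 1.501, 1.501 and 1.502 times the highest adult value. Just outside stood ACS near Ldhal6b, at 1.498, Pias1 and Cpt1c, both at 1.5 after rounding. The stronger Foxb2 ACS had 36.8, 40.2 and 37.9 CPM in P10 1, 2 and 3 and 24.3, 24.5 and 24.5 CPM in Adult 4, 5 and 6.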

How the data were processed

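ATAC-seq was measured in 6 islet libraries, 3 P10 and 3 adult. Per the study's methods and the submitters' processing notes, the authors aligned reads to Rn5 with BWA 0.7.13, dropped mitochondrial reads and reads of mapping quality under 30, called peaks with MACS2 2.1.1 on pooled reads of each age, joined them and deposited a table of raw counts, in which pyDNase had counted how often Tn5 had cut within every ACS. Removal of duplicates is not given in the sources used here. Columns of the authors' own edgeR comparison (fold change, average level, F, p and FDR) were not used. Coordinates are those of Rn5.

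The 338 repeated listings name another nearest gene, and each ACS was counted once. CPM used column sums. Gene names came from the file or, where it gave none or a locus code, from RefSeq by gene ID (67 closing ACS; 2 had IDs that RefSeq did not hold). EdgeR 4.0.16 (quasi-likelihood, TMM, age only, no filter, Benjamini-Hochberg over all 101603 ACS) was tested on simulated data. There it missed most of the ACS made lower in adults and made some false calls. Alternatives in R 4.3.3 were limma 3.58.1 (voom) and DESeq2 1.42.0. Log2 differences used CPM plus 0.5. Intervals are 95% Wilson intervals and cover counting error only. The members, lists and rules were chosen with earlier results of these data known. Named are the 12 genes with the most closing ACS, the 12 TSS-class ACS of highest count, up to 4 genes per list, the 3 closing ACS of highest count, the 3 widest, the longest runs and the ACS next to the limit; other names, such as those of list members, blocks and microRNAs, were chosen after their values were seen. Some items are not reported here. Values per library measure the spread between 3 rats or litters only.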

Additional observations from a re-analysis of the deposited data

How the results depend on the processing

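No paired analysis was possible because the adult libraries carry the numbers 4 to 6 and the P10 libraries 1 to 3, so the groups share none. The number of closing ACS (607) was 100 with a margin of 2, 1317, 233 and 1593 with a minimum mean count of 20, of 100 and none, 394 with TMM scaling, 421 with DESeq2 size factors, 10966 with total reads per library and 396 without chromosomes 1 and 3. It was 785 to 1471 without each replicate, where fewer libraries have to pass. The number of nearest genes (537) was 95 with a margin of 2, 1105, 216 and 1309 with the same count minimums, 356 with TMM, 5927 with total reads and 685 to 1245 without each replicate. The share in the TSS class (11.5%) was 7.0% with a margin of 2, 7.14%, 15.9% and 6.03% with the 3 count minimums, 21.6% with total reads, 8.46% after window division and 9.35 to 18.2% without each replicate, the highest without P10 3. The share inside genes (24.2%) was 20.2% with a minimum of 100, 19.2% with total reads and 20.3 to 23.3% without each replicate.

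The share of the block on chromosome 3 that closed (8.8%) was 0.936% with a margin of 2, 5.81% with TMM, 5.99% with DESeq2 size factors, 47.4% with total reads, 0.562% after window division and 9.87 to 15.2% without each replicate (15.2% without Adult 4, 14.6% without P10 1, 13.9% without Adult 5, 13.5% without Adult 6). The SCRT1 core was in 0.592% of closing promoters with total reads. ACS called lower in adults (6738) and higher (12504) numbered 1945 and 7177 at an FDR under 0.05, 10732 and 10447 with column sums, 61663 and 1062 with total reads, 7217 and 9418 among ACS with a mean count of 50 or more, 3285 to 7215 and 7973 to 13232 without each replicate, the lowest without P10 2; without P10 3 4232 were lower. The share called lower among other ACS of genes with several closing ACS (14.6%) was 5.83% at the FDR under 0.05, 20.9% with column sums, 70.1% with total reads and 21.9% with the count minimum, against 1.06%, 10.2%, 62.5% and 10.9% of all eligible ACS that did not close, and 8.01 to 15.8% without each replicate. Scaling by total reads moved the median log2 difference of the eligible ACS from -0.05 to -0.74. The cause was not tested for any of these. TMM scaling kept 394 of the 607 and window division 381. Window division and leaving out chromosomes were chosen after seeing the data.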
